A study of Bos indicus with 72 samples.

Results

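The genes described here are those whose level varied most between the hypothalamus libraries of 12 Brahman heifers. Of 24616 gene identifiers counted, 7078 averaged at least 20 CPM (counts per mega-read in genes) over the 12 hypothalamus libraries. A gene was a member when, besides that mean, the SD of its log2(CPM + 1) over the libraries was at least 0.9. Genes whose hypothalamus and pituitary levels had a Pearson r above 0.8 over the animal numbers were left out. Mean and SD were passed by 103 genes, the limit on r removed 3, and 100 remained. The members were thus chosen by their levels in these same hypothalamus libraries, so their large spread is by selection and is not a finding.

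The 6 post-puberty heifers were animals 2047, 2056, 2057, 2059, 2061 and 2064, and the 6 pre-puberty heifers were animals 2046, 2048, 2049, 2054, 2055 and 2060. The labels give the breed, the animal number and the puberty status, with no treatment, genotype or age. The series has 72 libraries, 12 for each of 6 tissues: hypothalamus, pituitary, both ovaries kept apart, uterus and liver. In the liver and uterus the labels give animals 2054 and 2059 the opposite status, and the groups there are not compared. Each library is the RNA of a whole tissue piece, so fewer cells of a type and less RNA per cell cannot be told apart.

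The hypothalamus sets the onset of puberty through the pulsed release of gonadotropin-releasing hormone, which drives the pituitary to release the gonadotropins that act on the ovaries. It is a patchwork of small nuclei, each with neurons that make particular peptides, beside glia, ependyma, vessels and meninges. The files identify genes by Ensembl number alone and 0 of the identifiers could be paired with a gene name, so members are given by identifier, no role is stated for any of them, and cell type markers could not be looked up.

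The hypothalamus libraries held between 4.84 and 10.4 mega-reads (M) in genes, the fewest in post-puberty animal 2047, with 30.7% to 36.0% of the reads in genes. The pituitary libraries held 4.43 to 9.76 M. The library labelled 2054, pre-puberty, had the lowest share in genes, 30.7%, and 15.1% of its reads not aligned uniquely, where the other hypothalamus libraries had 5.46% to 7.15%.

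The animal number of this hypothalamus library was at odds with its expression. Each hypothalamus library was set against the 12 pituitary libraries over genes that marked animals in both tissues. These were genes of at least 5 CPM, SD of at least 0.5 in both tissues and r above 0.8 over the other 11 animals, which gave 14 to 25 genes per library. The best match was the pituitary library of the same number for 11 of 12 hypothalamus libraries, with r of 0.577 to 0.943. The library labelled 2054 had r of 0.122 to the pituitary of animal 2054 and of 0.920 to that of post-puberty animal 2059. To the hypothalamus library of 2059 its r was 0.949. Over 3 choices of thresholds, its r to the pituitary of 2059 lay between 0.910 and 0.941 and that to its own number between 0.0819 and 0.125. The hypothalamus library of 2059 had r of 0.777 to the pituitary of its own number and of 0.706 to that of 2054. With the other thresholds these were 0.7035 and 0.680, and 0.857 and 0.441. These values were computed after seeing the data, run across genes and carry no p. Over the 100 members, in contrast, the deviations of the libraries labelled 2054 and 2059 from the gene means had an r of -0.088. The library keeps its label below, and the puberty comparison is given with and without it.

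**Figure D1:**
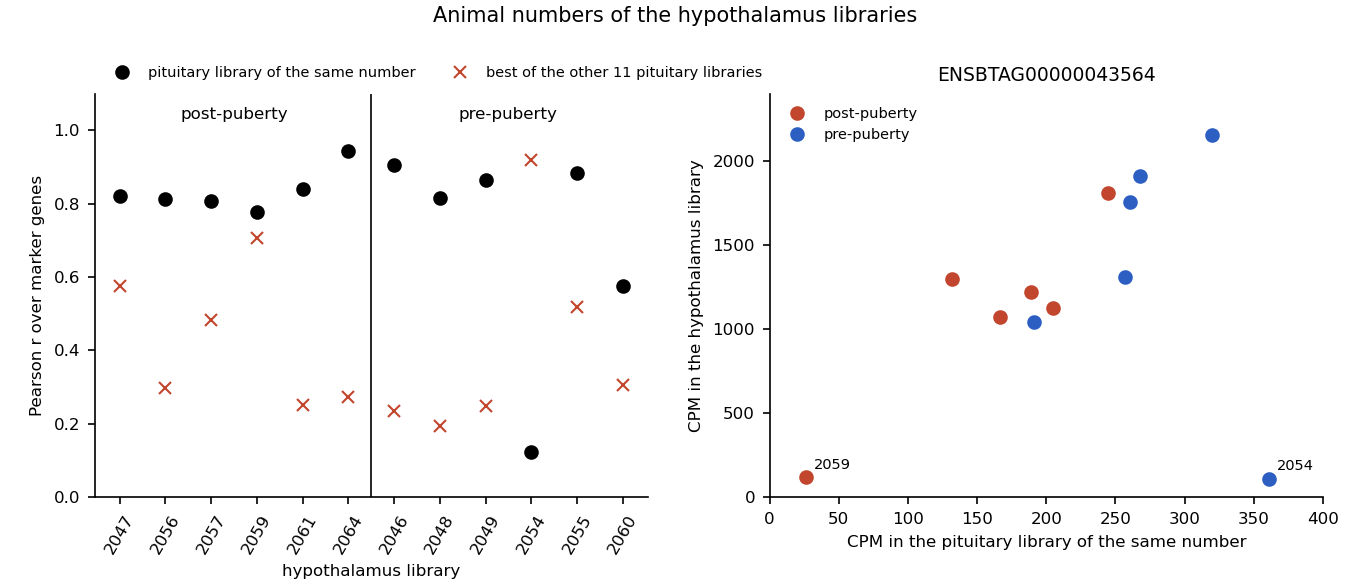
Left, Pearson r over marker genes between each hypothalamus library and the pituitary library of the same number (dots) or the best of the other 11 (crosses), post-puberty libraries left. Right, CPM of ENSBTAG00000043564 in hypothalamus against pituitary (linear axes). This gene was among those used on the left for the library labelled 2054. Only that library combines 111 CPM in the hypothalamus with 361 CPM in the pituitary.

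The SD of the 100 members ran between 0.909 and 3.41, with a median of 1.1, against a median of 0.207 over the 7078 genes. Their mean levels ran between 20.2 and 3934 CPM, with a median of 38.6 CPM, and 94 had at least 10 reads in every library. At the SD limit, the nearest members were ENSBTAG00000026909 at 0.909 and ENSBTAG00000008942 at 0.910, and the nearest genes outside were ENSBTAG00000010030 at 0.898 and ENSBTAG00000003515 at 0.897. At the limit on the mean, ENSBTAG00000017549 was inside with 20.2 CPM and ENSBTAG00000016854 outside with 19.8 CPM. At the limit on r, ENSBTAG00000002069 was inside with 0.788 and ENSBTAG00000019588 outside with 0.817.

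Clustering on the correlation of the members over the 12 libraries placed 83 members in 5 blocks of 37, 18, 11, 11 and 6 genes and left 17 outside. The blocks differed in which libraries carried them. The pre-puberty library of 2049 was the highest library for 49 members, and the post-puberty library of 2047 for 16. Next were 2060 with 9 and 2057 with 7 members. The library of 2048 was lowest most often, for 20 members. In 46 members the highest library had at least 2 times the level of the next one, and in 41 of these 46 it was the library of 2049. Since members were chosen for spread over these same libraries, the correlations within blocks are a description without a test.

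**Figure D2:**
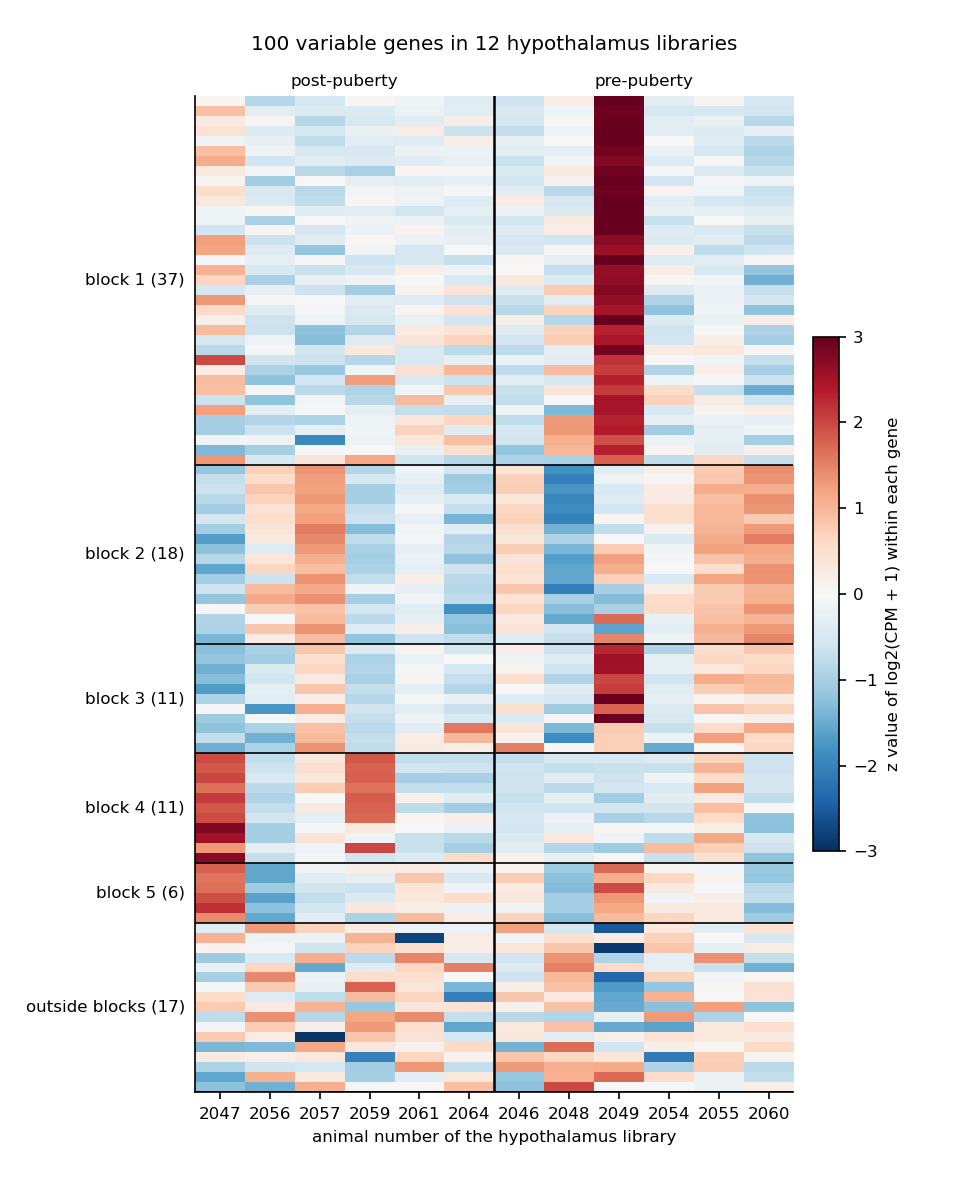
Each row is a member and each column a hypothalamus library, post-puberty left of pre-puberty; colour is the z value of log2(CPM + 1) within the gene. Block 1 is reddest in the library of 2049, the highest library for all 37 of its genes, block 4 in 2047 and, for most rows, 2059, and block 2 changes in steps over most libraries.

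Block 1 was made of 37 genes that were all highest in 1 library, that of pre-puberty animal 2049. Its mean z value, the log2(CPM + 1) centred and scaled within each gene and averaged over the block, was 2.65 there and between -0.60 and 0.32 in the other 11 libraries. The median level of the block was 237 CPM in 2049, against 16.4 to 31.2 CPM in the others, where the highest was post-puberty animal 2047. The median r between its genes was 0.789, and 0.257 without the library of 2049, whereas leaving out any other library gave 0.790 or more. Without 2049 only 4 of the 37 genes kept an SD of at least 0.9.

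Block 1 held the member with the highest mean and the widest range of levels. ENSBTAG00000010991 had 19.99, 64.9 and 1953 CPM (lowest, median, highest) in the post-puberty libraries and 9.54, 31.4 and 44829 CPM in the pre-puberty libraries. The highest values belong to 2047 and 2049, and the other 10 libraries lay between 9.54 and 96.8 CPM, with the groups overlapping. In the library of 2049 it was the gene of rank 2 and took 4.48% of the gene reads. ENSBTAG00000009748 had 0.236 to 2.17 CPM in the post-puberty libraries and 0.512 to 451 CPM in the pre-puberty libraries, so 1 library held nearly all of its reads.

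The genes nearest to the centre of block 1 showed the same single library. ENSBTAG00000008419 had 15.9, 24.2 and 29.6 CPM post-puberty and 18.6, 26.2 and 197 CPM pre-puberty. ENSBTAG00000000731 had 0.961, 1.2 and 12 CPM post-puberty and 0.575, 0.806 and 237 CPM pre-puberty. Apart from the library of 2049, the pre-puberty values of both genes fell inside or close to the post-puberty range. The single library was not equally dominant in every gene. In 26 of the 37 genes 2049 had at least 3 times the level of the next library, and in 2 genes under 2 times. ENSBTAG00000025450, singled out for the smallest ratio, had 126 CPM in 2047, post-puberty, and 142 CPM in 2049, pre-puberty. ENSBTAG00000007036 had 179 CPM in 2047, 134 CPM in 2059 and 23.5 CPM in 2057 post-puberty and 523 CPM in 2049 and 40.1 CPM in 2055 pre-puberty, and lay between 0.256 and 2.77 CPM in the other 7 libraries.

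Block 2, of 18 genes, was graded over the libraries rather than carried by 1 of them. Its mean z value was high in 2057 (1.2) after puberty and in 2060 (1.24) and 2055 (0.94) before it. It was low in 2047 (-0.96), 2064 (-0.92) and 2059 (-0.81) after puberty and in 2048 (-1.5) before it. The median level of the block was 96.8 CPM in 2057 and 96.7 CPM in 2060, and 11.9 CPM in 2048. Both ends of the range thus held libraries of either status. The median r between its genes was 0.843 and stayed at 0.814 or more when any 1 library was left out, and at least 14 of the 18 genes kept their SD. ENSBTAG00000018841, the gene nearest the centre, had 17.4, 35.0 and 135 CPM post-puberty and 9.73, 59.0 and 140 CPM pre-puberty. ENSBTAG00000031625 had 9.56, 17 and 61.9 CPM post-puberty and 4.10, 32.6 and 66.4 CPM pre-puberty. In both, the lowest and the highest of the 12 libraries were pre-puberty ones, 2048 and 2060, and the groups overlapped over most of the range.

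Block 3, of 11 genes, combined both patterns. Its mean z value was 1.93 in the pre-puberty library of 2049, then 0.70 in 2057 after puberty and 0.67 in 2060 and 0.56 in 2055 before it. It was lowest in 2047 (-1.11), 2056 (-0.79) and 2059 (-0.77) after puberty and 2048 (-0.70) before it. Without 2049, 3 of the 11 genes kept an SD of at least 0.9 and the median r was 0.710, against 0.739 with it. ENSBTAG00000014538 had 56.9, 89.3 and 182 CPM post-puberty and 97.6, 154 and 781 CPM pre-puberty. ENSBTAG00000017075 had 7.24, 12.4 and 29.98 CPM post-puberty and 9.33, 22 and 76.8 CPM pre-puberty. The highest value of each came from 2049, and the remaining libraries of the 2 groups overlapped.

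Block 4, of 11 genes, was high in the post-puberty libraries of 2047 (mean z value 2.07) and 2059 (1.27) and, less so, in the pre-puberty library of 2055 (0.70). Its median level was 124 CPM in 2047, 83.2 CPM in 2059, 32.0 CPM in 2055 and 16.5 CPM in 2057, and 5.11 to 11.1 CPM in the other 8. In 10 of the 11 genes 2047 was highest. The median r was 0.808, and 0.650 without 2047.

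Some block 4 genes were nearly absent from most libraries. ENSBTAG00000004176 had 167 CPM in 2047, 142 CPM in 2059 and 10.1 CPM in 2057 post-puberty and 31.6 CPM in 2055 pre-puberty. In the other 8 libraries it lay between 0 and 0.353 CPM. ENSBTAG00000005343 followed the same order, with 100.3, 94.5 and 18.5 CPM in 2047, 2059 and 2057 and 42.9 CPM in 2055, and 0.120 to 1.12 CPM elsewhere. ENSBTAG00000016043 had 1.53, 6.96 and 157 CPM post-puberty and 1.68, 2.80 and 20.5 CPM pre-puberty. It too was highest in 2047 and 2059, followed by 2055 and 2057. ENSBTAG00000007036 of block 1 had its raised levels in these same 4 libraries and in 2049. In 3 of the 11 genes 2047 had at least 5 times the level of 2059. ENSBTAG00000008542 had 837 CPM in 2047 and 12.4 CPM in 2059, and 96.9 CPM in 2055 pre-puberty. ENSBTAG00000014078 had 124 CPM in 2047 and 8.40 CPM in 2059, and ENSBTAG00000015978 had 190 CPM and 34.8 CPM. In the other 8 genes the level in 2047 was between 0.624 and 1.29 times that in 2059. ENSBTAG00000014078 and ENSBTAG00000015978 were named after their values were seen.

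Block 5, of 6 genes, was high in 2047 (mean z value 1.76) after puberty and in 2049 (1.36) before it. It was low in 2056 (-1.43) after puberty and in 2048 (-1.15) and 2060 (-1.03) before it. Its median level was 93.2 CPM in 2047 and 63.0 CPM in 2049, and 5.84, 7.04 and 7.53 CPM in 2056, 2048 and 2060. The median r was 0.902 and at least 0.875 without any 1 library. ENSBTAG00000030973 had 3.73, 25.2 and 167 CPM post-puberty and 6.67, 24.3 and 152 CPM pre-puberty. ENSBTAG00000006069 had 6.02, 17.1 and 74.4 CPM post-puberty and 7.94, 29.4 and 50.004 CPM pre-puberty. The 2 statuses covered nearly the same range in both genes.

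**Figure D3:**
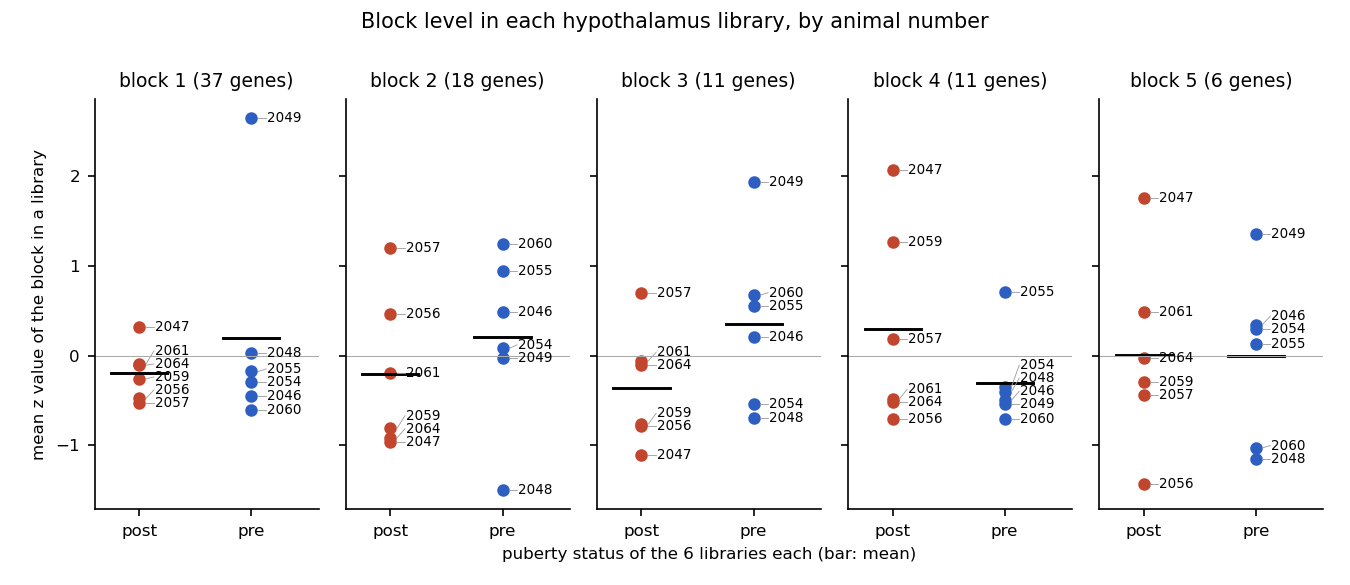
Dots are the mean z value of a block in each hypothalamus library, labelled by animal number, with post-puberty left of pre-puberty and bars at the group means. In each of the 5 blocks the ranges of the 2 groups overlap; 2049 lies at 2.65 in block 1, and 2047 and 2059 at 2.07 and 1.27 in block 4.

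The 17 members outside the blocks formed no cluster of at least 4 genes, but some varied together. ENSBTAG00000020923 and ENSBTAG00000030805 each had 0.965 as their highest r to another member. The median of this highest r over the 17 was 0.677. ENSBTAG00000043564 was the most abundant of the 17, with 121, 1175 and 1808 CPM post-puberty and 111, 1532 and 2151 CPM pre-puberty. Only the libraries of 2059, post-puberty, and that labelled 2054, pre-puberty, were low, and the other 10 held 1045 to 2151 CPM. In the pituitary the same gene was low in 2059 alone, with 26.1 CPM, and the library of 2054 had 361 CPM, the highest of 12.

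ENSBTAG00000043580 fell into 2 separate ranges. Post-puberty it had 3.17 to 7.40 CPM in 5 libraries and 97 CPM in 2061. Pre-puberty it had 46.1 to 93.8 CPM in 2046, 2048, 2049 and 2055, against 4.72 CPM in 2060 and 3.86 CPM in the library labelled 2054. In the pituitary, 2061, 2046, 2048, 2049 and 2055 were again the high animals, with 6.53 to 24.8 CPM. The pituitary library of 2054 belonged to them with 14.9 CPM, and the other 6 lay between 0.337 and 1.37 CPM.

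Over all 12 animal numbers no member exceeds an r of 0.8 to the pituitary, by selection. Without the library labelled 2054, 5 members did, all outside the blocks. These 5 were among the 25 genes over which that library was matched to animals above, so they add nothing to that match. They were ENSBTAG00000043564 with r of 0.969, against 0.489 with all 12, ENSBTAG00000002069 (0.942, against 0.788) and ENSBTAG00000026909 (0.930, against 0.652). The others were ENSBTAG00000043580 (0.889, against 0.70) and ENSBTAG00000027916 (0.876, against 0.756). ENSBTAG00000002069 was nearly absent in 1 animal in both tissues: 2061, post-puberty, had 1.18 CPM in the hypothalamus and 4.17 CPM in the pituitary. The other hypothalamus libraries had 17.9 to 77.9 CPM. The last 3 genes and ENSBTAG00000002069 were singled out after their values were seen.

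ENSBTAG00000026768 and ENSBTAG00000010082, also outside the blocks, had large SDs and r of 0.352 and 0.174 to the pituitary. The first averaged 0.901 CPM in the pituitary, so few reads that its pattern there cannot be read. In the hypothalamus ENSBTAG00000026768 had 0.326, 21.3 and 54.0 CPM post-puberty and 1.45, 26.3 and 61.8 CPM pre-puberty, with the lowest values in 2064 and 2049. ENSBTAG00000010082 was high in 2057 (70.1 CPM) and 2061 (109.8 CPM) post-puberty and in 2048 (96.2 CPM) and 2055 (98 CPM) pre-puberty. In the other 8 libraries it lay between 5.37 and 14.4 CPM. In neither gene did the 2 statuses separate. ENSBTAG00000008103, ENSBTAG00000031788 and ENSBTAG00000019159, picked after their values were seen, were each low in 1 library. ENSBTAG00000031788 had 8.94 CPM in 2057, post-puberty, and 66.2 CPM or more in the other 11. ENSBTAG00000008103 had 8.35 CPM in 2049, pre-puberty, and 60.2 CPM or more elsewhere. ENSBTAG00000019159 had 8.96 CPM in 2049 and 25.4 CPM or more elsewhere.

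**Figure D4:**
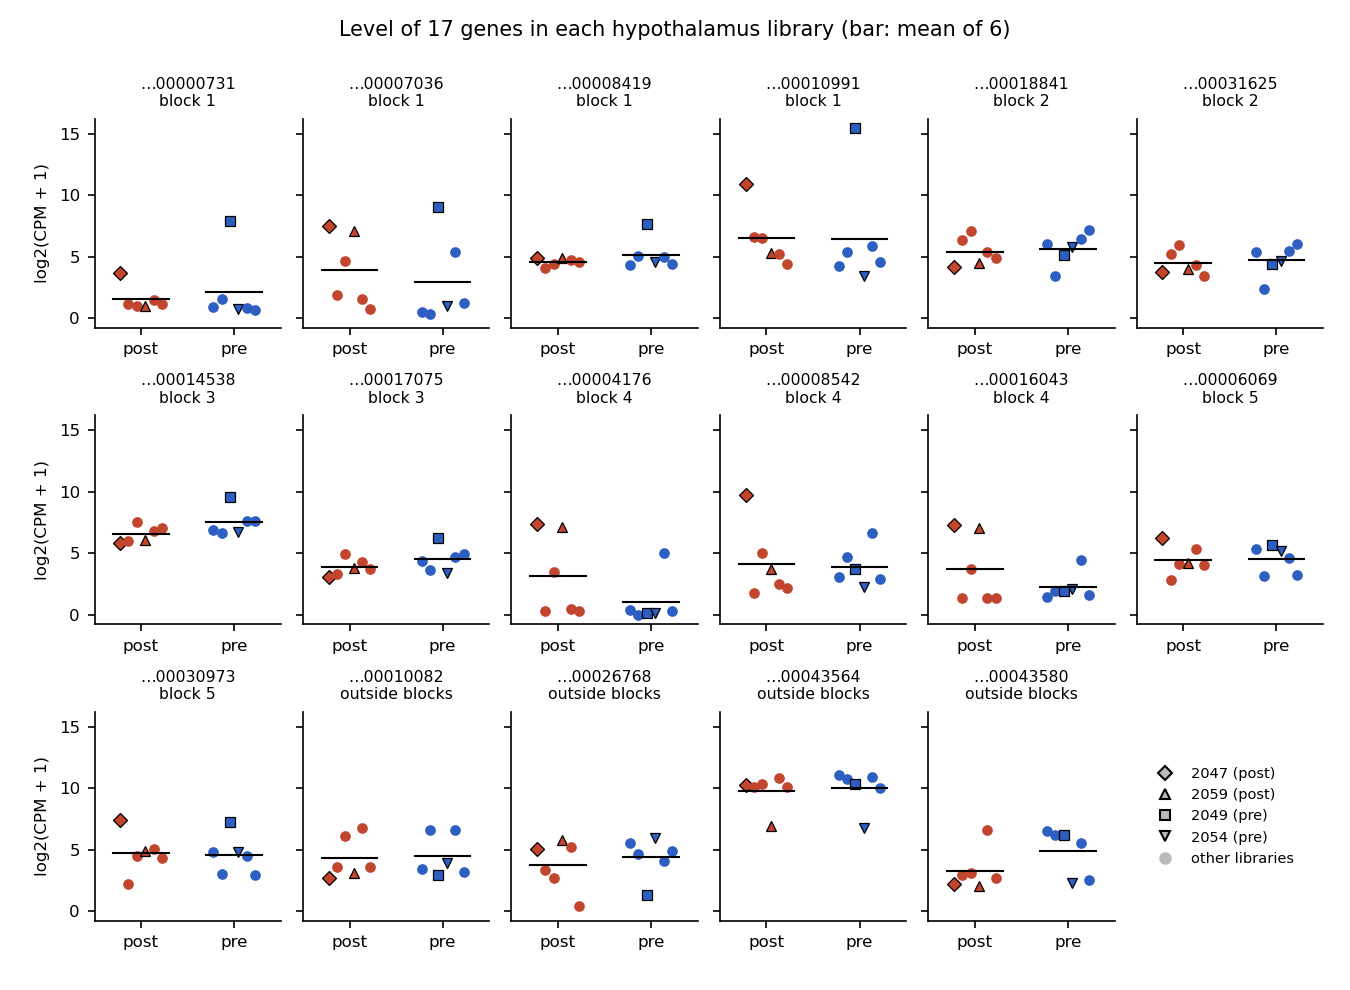
Log2(CPM + 1) of 17 named genes (last 8 digits of the identifier) in each hypothalamus library, post-puberty left of pre-puberty, with bars at group means and marked symbols for 2047, 2059, 2049 and 2054. The 2 groups overlap in every panel, and single libraries such as 2049 in block 1 lie far from the rest of their group.

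The study's contrast is post-puberty against pre-puberty. No block followed it: none had all post-puberty libraries on one side of all pre-puberty libraries. Of the 100 members, 0 were free of overlap between the groups, where 0.131% of all genes tested were. At so low a share, a count of 0 among 100 genes says nothing particular about the members. Puberty status accounted for a median of 4.34% of a member's variance in log2(CPM + 1), and for 4.85% over the 7078 genes. Without the library labelled 2054 the medians were 5.33% and 5.73%. The libraries also fell into 2 library sets of 6, each with 3 animals of either status. These sets were read from the file names, and the labels do not say what they stand for. They accounted for a median of 6.45% of a member's variance, against 6.64% over the 7078 genes. By block, with all 12 libraries, the median share of puberty status was 3.83%, 3.14%, 15.7%, 9.48% and 0.263% for blocks 1 to 5. Blocks 3 and 4 thus stood above the 4.85% of the 7078 genes and the other blocks below it, without a test.

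In edgeR's quasi-likelihood test over 13713 genes, 0 of the 97 members tested changed at an adjusted p under 0.05, and the share called over all genes was 0%. The smallest adjusted p was 0.979. ENSBTAG00000004176, ENSBTAG00000005343 and ENSBTAG00000009748 were not tested, because too few libraries reached the minimum count of edgeR's filter. DESeq2 called 1 gene, no member, but it tested only 73 members, so its result does not cover the rest. Limma voom called 0. At an unadjusted p under 0.05 stood 15 of the 97 members, or 15.5%, against 3.46% of all genes. These were 4 genes of block 4 with higher and 7 of block 1 and 4 of block 3 with lower levels post-puberty. Beside ENSBTAG00000016043, the block 4 genes were ENSBTAG00000031135, ENSBTAG00000021426 and ENSBTAG00000025502, with log2 differences of 2.11, 1.96 and 1.75. The block 1 gene with the smallest unadjusted p of all members, 0.0107, was ENSBTAG00000014424, with -3.72 (SE 1.24). A member's large spread and its group difference come from the same 12 libraries, so this share is not independent of how the members were chosen.

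That count moved with single libraries. It was 5 without 2049, 5.15% of those tested against 2.12% of all genes, and 8 without 2047, 8.25% against 2.21%. It was 6 without 2059, 6.19% against 3.11%, and 24 without the library labelled 2054, 24.7% against 4.10%. Without 2054 and 2059 together it was 11, 11.3% against 3.34%, and without 2047 and 2049 together 1, 1.04% against 1.42%. Without the library labelled 2054, the 20 genes lower post-puberty were 13 of block 1 and 7 of block 3. Without 2054 and 2059, block 4 had 0 genes at that p and a median log2 change of 1.38.

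The median log2 change of the tested members, post-puberty over pre-puberty, was -0.51, against -0.0076 over all genes. It was -0.0025 without 2049 and -0.64 without the library labelled 2054. By block it was -1.11 in block 1, -0.37 in block 2, -0.99 in block 3, 1.75 in block 4 and 0.17 in block 5, and 0.0066 outside the blocks. Without the library labelled 2054 the medians were -1.25, -0.44, -1.13, 1.76 and 0.14 for blocks 1 to 5. Without 2049 block 1 had 0.16 and block 3 -0.32. Without 2047 block 4 had 0.77 and block 5 -0.48.

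The library sets did not show the same pattern. Library set 1 (2056, 2057 and 2064 post-puberty, 2048, 2049 and 2055 pre-puberty) gave medians of -2.03, 0.67, -1.02, -0.29 and -1.12 for blocks 1 to 5. Library set 2 (2047, 2059 and 2061 post-puberty, 2046, 2054 and 2060 pre-puberty) gave 0.52, -1.62, -0.83, 2.77 and 0.92, and 0.73, -1.83, -1.0005, 3.49 and 1.06 without the library labelled 2054. At an unadjusted p under 0.05 stood 16 members in set 1, 16.5% against 2.35% of all genes. In set 2 they were 37, 38.5% against 9.77%, and without the library labelled 2054 they were 38, 38.0% against 8.36%. Block 3 alone had the same sign in both sets. Within set 1 alone, 1 gene passed the threshold, 0.00723% of those tested. It was ENSBTAG00000043580, with 5.54 to 7.40 CPM in the 3 post-puberty libraries and 46.1 to 73.7 CPM in the 3 pre-puberty libraries, a log2 difference of -3.21 (SE 0.25, edgeR adjusted p 0.0313). In the other 22 fits of this gene the adjusted p lay between 0.833 and 0.99995 and the log2 difference between -3.15 and 0.0477. Within set 2, which holds the library labelled 2054, 0 genes passed, or 0% of those tested. Whether the sets differ was not tested.

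The largest log2 changes among the members illustrate this. ENSBTAG00000010991 averaged 373 ± 775 CPM post-puberty and 7496 ± 18289 CPM pre-puberty (SD, n = 6 each). The fitted log2 difference was -4.32 (SE 2.25, edgeR adjusted p 0.979), and 3.60 without 2049. ENSBTAG00000000731 averaged 3.02 ± 4.41 CPM post-puberty and 40.4 ± 96.5 CPM pre-puberty (SD, n = 6 each). Here it was -3.88 (SE 1.63, edgeR adjusted p 0.979), and 1.497 without 2049. In both genes the sign thus rested on 1 pre-puberty library.

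Upward, ENSBTAG00000016043 averaged 51.5 ± 73.7 CPM post-puberty and 5.53 ± 7.35 CPM pre-puberty (SD, n = 6 each). Its log2 difference was 3.17 (SE 1.23, edgeR adjusted p 0.979), and its post-puberty mean came from 2047 and 2059. ENSBTAG00000008542 averaged 148 ± 337 CPM post-puberty and 25.3 ± 35.9 CPM pre-puberty (SD, n = 6 each). A log2 difference of 2.48 (SE 1.42, edgeR adjusted p 0.979) turned to -1.15 without 2047.

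The same contrast in the pituitary used libraries that did not set the members' spread. The limit on r did use them, and 12 members had a pituitary SD of at least 0.9, against 0.480% of the 7078 genes. There, 0 of 73 members tested passed an adjusted p under 0.05 in edgeR, and the share over all 13335 genes was 0%. DESeq2 and limma voom called 0 of the genes tested. At an unadjusted p under 0.05 stood 7 of the 73 members, or 9.59%, against 1.52% of all genes. Of these, 3 were higher and 4 lower post-puberty. ENSBTAG00000043580 had 0.337 to 6.53 CPM in post-puberty and 0.494 to 24.8 CPM in pre-puberty pituitaries, overlapping ranges, with a log2 difference of -2.80 (SE 0.80, edgeR unadjusted p 0.00403, adjusted p 0.9999). ENSBTAG00000014538 was higher post-puberty in the pituitary, with a log2 difference of 0.64 (SE 0.24, edgeR adjusted p 0.9999), and lower in the hypothalamus, with -1.24 (SE 0.52, adjusted p 0.979). The other 5 were ENSBTAG00000027916 (1.07), ENSBTAG00000000265 (0.36), ENSBTAG00000009917 (-0.34), ENSBTAG00000005596 (-0.82) and ENSBTAG00000043564 (-0.83), singled out by that p. Pituitary and hypothalamus libraries share animals, so the 2 contrasts are not independent. ENSBTAG00000043580, ENSBTAG00000027916 and ENSBTAG00000043564 were also among the 5 members with r above 0.8 between the 2 tissues without the library labelled 2054.

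Correlation within the blocks was lower in the other tissues than in the hypothalamus, where the members were chosen, as far as enough genes of a block were detected. In the pituitary, over the 67 block members of at least 1 CPM, the median r within blocks was 0.216, against 0.198 between blocks and 0.377 over all genes of the same filter. Block 5 had the highest value there, 0.410 over its 6 genes, and block 3 the lowest, -0.021. In the liver the median r within blocks was 0.0307 over 35 members, against 0.125 over 6240 genes. In the left ovary it was -0.018 over 18 members, against 0.0964 over 2089 genes, and in the right ovary 0.0506, against 0.393 over 2105 genes. The ovary values come from blocks 1 and 4 alone, since the other blocks had 1 gene each at 20 CPM, and in the liver blocks 3 and 5 had too few genes for a value. In the uterus it was 0.0734 over 29 members, but 3 genes of block 5 had a median r of 0.884 there. Each r is taken over the 12 libraries of 1 tissue, so these values do not depend on animal numbers. Shared depth and composition of the libraries enter all of them, and they carry no test.

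Many members were low in the pituitary. In 39 of 100 the mean hypothalamus CPM was at least 10 times the pituitary CPM, against 5.59% of the 7078 genes. These are ratios of means, and some means rest on single libraries. ENSBTAG00000009748 had 451 CPM in 2049 and at most 2.17 CPM elsewhere. ENSBTAG00000010991 averaged 3934 CPM, with medians of 64.9 CPM post-puberty and 31.4 CPM pre-puberty, against 15.4 CPM in the pituitary. The pituitary was above the hypothalamus in 25 of 100, against 42.3% of the 7078 genes. At 1 CPM or more in the pituitary were 80 of 100 members, against 98.4% of the genes. In the pituitary 12 members had an SD of at least 0.9, against 0.480% of the genes, and the median pituitary SD of members was 0.434.

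The share at 10 times the pituitary level was highest in blocks 2 and 3, and no test was made between blocks. In block 2, 12 of 18 genes were at least 10 times higher in the hypothalamus, with a median pituitary level of 3.19 CPM. In block 3 it was 7 of 11 genes, with a median of 1.06 CPM. ENSBTAG00000001075, the most abundant gene of block 3, averaged 381 CPM in the hypothalamus and 0.243 CPM in the pituitary, but 113 CPM in the left and 74.0 CPM in the right ovary. Block 3 genes ENSBTAG00000014538 and ENSBTAG00000020087 averaged 175 and 187 CPM in the hypothalamus and 6.41 and 1.06 CPM in the pituitary. They had no read in the ovaries, which allows up to 1.16 CPM in the left and 0.947 CPM in the right ovary (3 reads over the 12 libraries, for counting error only). Few of the ovary reads fell in genes, as given below. In block 1, 9 of 37 genes were 10 times higher in the hypothalamus and 14 of 37 were higher in the pituitary.

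**Figure D5:**
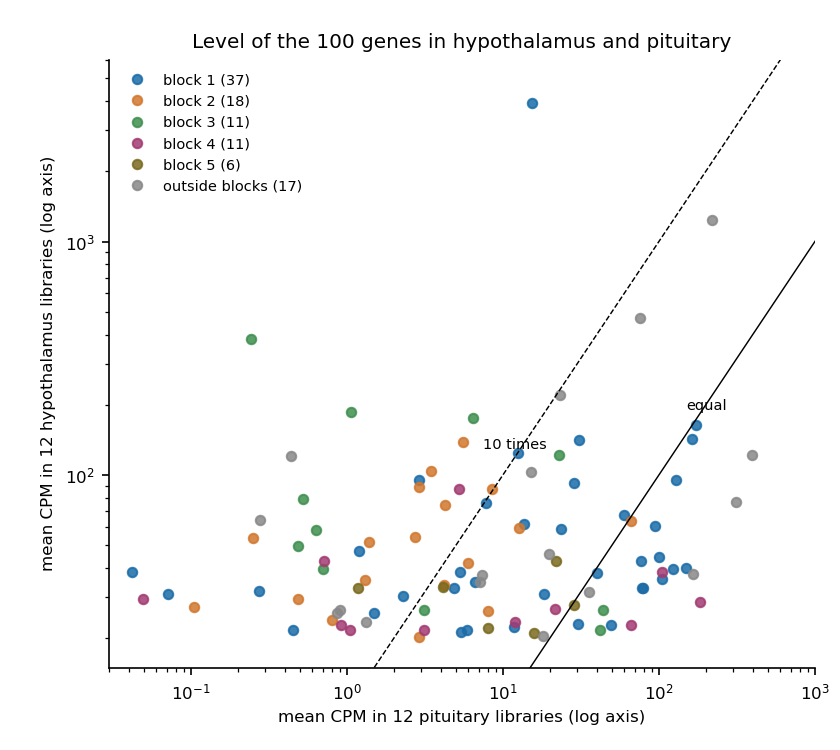
Mean CPM of each member over the 12 hypothalamus libraries against the 12 pituitary libraries, on log axes, coloured by block; the solid line marks equal levels and the dashed line a 10-fold excess in the hypothalamus. Block 2 and block 3 lie mostly above the dashed line, with 12 of 18 and 7 of 11 genes.

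In the liver, 41 of 100 members reached 1 RPKM, a read count divided by gene length and by library size, against 84.5% of the 7078 genes. Some were among the most abundant liver genes. ENSBTAG00000010991 averaged 9008 ± 1655 RPKM (SD, n = 12), rank 4 of 24616, while the other tissues with counts had 15.4 CPM in the pituitary and no read in the ovaries (same limits as above). ENSBTAG00000043564 averaged 6760 ± 2034 RPKM (SD, n = 12), rank 11, with 85.8 CPM in the left and 71.7 CPM in the right ovary. ENSBTAG00000000522 and ENSBTAG00000000442 had ranks 17 and 25. ENSBTAG00000000522 averaged 4660 RPKM in the liver, lay outside the blocks, and was lowest in the hypothalamus of 2049, at 3.03 CPM. ENSBTAG00000000442 averaged 3707 RPKM in the liver and belonged to block 1. In block 3, 1 of 11 genes reached 1 RPKM in the liver.

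The ovary libraries held 0.185 to 0.334 M reads in genes, so 1 CPM is less than 1 read there. Of the 100 members, 61 averaged at least 1 CPM in the left and 61 in the right ovary, against 89.8% and 90.2% of the 7078 genes. ENSBTAG00000006069 of block 5 averaged 27.9 CPM in the hypothalamus, against 194 CPM in the left and 169.8 CPM in the right ovary. ENSBTAG00000043580 averaged 34.7 CPM in the hypothalamus, against 144 CPM in the left and 194 CPM in the right ovary.

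The uterus files listed 73 of the members, against 95.6% of the 7078 genes, and a level could be read for 64. Of these, 50 had a median of at least 1 RPKM and 30 of at least 10 RPKM. ENSBTAG00000043564 had a median of 4140 RPKM, between 2822 and 5128 RPKM, without the low values of 2 hypothalamus libraries. ENSBTAG00000010082 had a median of 79.1 RPKM, against 0.335 RPKM on average in the liver. Of block 1, 16 of 23 genes with a level reached 10 RPKM, and of block 3, 1 of 9.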

How the data were processed

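Paired-end Illumina HiSeq 2000 reads came from TruSeq libraries of total RNA, per the labels' protocols, and the build was UMD3.1, per the submitters' processing notes. Hypothalamus, pituitary and ovary files hold deposited read counts per gene; aligner and strand setting were not given in the sources used here. Rows that name no gene, among them 53.7% to 60.2% of hypothalamus reads outside genes, were left out of CPM and tests. Liver files hold RPKM as deposited by the authors. Uterus files as deposited appear to hold the size of a log2 value of RPKM plus 0.001 with its sign lost. A sign was recovered where 1 reading alone gave whole reads within 0.02, with gene units from the liver. Values beyond the size that 0 RPKM would give were read as positive, and values at that size as 0 RPKM. Where neither reading gave whole reads, a value with a very high read count under the positive reading was also read as positive. A median was given for genes with at least 10 of 12 values.

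Members and lists were chosen with earlier results of these data known. Members were clustered by average linkage on 1 minus Pearson r of log2(CPM + 1), with the tree divided at 0.5, and a block had at least 4 genes. Post-puberty was compared with pre-puberty by edgeR 4.0.16 (TMM, filterByExpr, robust quasi-likelihood F test, two-sided, Benjamini-Hochberg over all genes), without covariates, on 6 libraries against 6. DESeq2 1.42.0, limma 3.58.1 voom with sample quality weights, RLE factors, no filter, library sets (read from the file names), leaving out animals and other member rules were alternatives. The fits were tested on simulated data. Each edgeR SE is the absolute log2 difference divided by the square root of the F value. Logs of liver and uterus RPKM used a pseudocount of 0.5. Named were, per block, the 2 genes of highest mean r, over all members the 2 of largest SD, of highest mean and of largest change each way, and the 3 of largest SD outside blocks.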

Additional observations from a re-analysis of the deposited data

Results flagged for a closer look

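Among the 17 named genes and 5 block means, each group of 6 hypothalamus libraries was checked for a value whose gap to its neighbour took an unusual share of the group's range. Of 44 groups, 13 held such a value, where chance gives about 2.2 (1 in 20). The items were chosen for large spread, so more than that is built in. No explanation was tested for any of them.

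The pre-puberty library of 2049 held 5 of the values, all high. It had 197 CPM of ENSBTAG00000008419, with the next pre-puberty library at 32.4 CPM, and 237 CPM of ENSBTAG00000000731, with the next at 1.92 CPM. It had 781 CPM of ENSBTAG00000014538, with the next at 200.2 CPM, and 44829 CPM of ENSBTAG00000010991, with the next at 57.1 CPM. Its block 1 mean was 2.65, with the next at 0.0254. This library also had the most genes with reads, 17152, and the lowest share in genes after the library labelled 2054, 34.0%.

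The post-puberty library of 2047 was high in ENSBTAG00000000731, with 12 CPM and the next at 1.77 CPM, and in ENSBTAG00000010991, with 1953 CPM and the next at 96.8 CPM. Both genes are those of 2049 above. It was the shallowest hypothalamus library, with 4.84 M reads in genes.

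The pre-puberty library of 2055 was high in block 4. It had 20.5 CPM of ENSBTAG00000016043, with the next at 3.35 CPM, and 31.6 CPM of ENSBTAG00000004176, with the next at 0.280 CPM. Its block 4 mean was 0.703, with the next at -0.35.

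ENSBTAG00000043564 was low in 1 library of each group: 121 CPM in the post-puberty library of 2059, with the next at 1074 CPM, and 111 CPM in the pre-puberty library labelled 2054, with the next at 1045 CPM. ENSBTAG00000043580 was high in the post-puberty library of 2061, with 97 CPM and the next at 7.40 CPM.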

How the results depend on the processing

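No hypothalamus gene was called by edgeR; DESeq2 and library set 1 alone called 1 gene each, and no animal left out added any (0 to 0). No setting called a pituitary gene. Members at an unadjusted p under 0.05 (15) numbered 8 with DESeq2, of 73 tested, and 2 with voom. They were 8 without a filter and 6 with a library set term. With voom they made up 2.06% of the members tested, below the 6.21% of all genes. The shares were 8% against 3.55% without a filter and 6% against 3.39% with a library set term. With DESeq2 3.11% of all genes were under that p. The members numbered 16 in set 1 alone, 37 in set 2 alone and 5 to 24 with 1 animal left out. They were 38 in set 2 without 2054 and 1 without 2047 and 2049, both settings added after seeing the data. The median log2 change of members (-0.51) was -0.31 with DESeq2, -0.080 with voom, -1.02 and 0.26 in sets 1 and 2, 0.36 in set 2 without 2054, -0.088 without 2047 and 2049 and -0.75 to -0.0025 with 1 animal left out. Members (100) numbered 189 and 46 at mean CPM limits of 10 and 40, 40 without 2047 and 2049 and 52 to 106 with 1 animal left out. Blocks (5) numbered 3 to 6 with 1 animal left out, 3 without 2046 or 2061. The pituitary r within blocks (0.216) was 0.175 with Spearman ranks and 0.157 to 0.245 with 1 animal left out.

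Changes that reversed were those of ENSBTAG00000016043 (-0.020 with voom, -0.65 in set 1), ENSBTAG00000008542 (-0.89 with voom, -1.77 in set 1, -1.29 without 2047 and 2049, -1.15 to 3.69 with 1 animal left out), ENSBTAG00000010991 (0.69 with voom, 5.27 in set 2, 4.98 in set 2 without 2054, 0.98 without 2047 and 2049, -6.91 to 3.60 with 1 animal left out) and ENSBTAG00000000731 (0.57 with voom, 2.63 in set 2 without 2054, -4.92 to 1.497 with 1 animal left out). The cause was not tested. Fewer libraries, or fewer genes under a stricter limit, enter by construction. No paired analysis was possible because the post- and pre-puberty libraries came from different animals, and an animal number recurs only across tissues.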

Other observations

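The blocks extended beyond the members. Of the 6978 other genes of at least 20 CPM in the hypothalamus, 211 had r above 0.8 to the mean of block 1 over the 12 libraries, and 103 had r under -0.8. For block 2 the counts were 201 and 42, for block 3 211 and 119, for block 4 41 and 7, and for block 5 79 and 16. The median SD of the positively correlated genes was 0.317 for block 1 and 0.385 for block 2, below the limit for members. These libraries share their reads' depth scale, block 1 rests on 1 library, and the counts carry no test.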
